A study of Mus musculus with 84 samples.

Results

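The 32 genes described here form a list of astrocyte genes, though their expression in sorted astrocytes was not measured. They were taken from the count table by their symbols. No measured value entered that rule, though the members were chosen with earlier results of these data known. All 32 were in the table of 43629 genes, and all 32 were among the 16320 genes that kept enough counts to be tested. They were measured by RNA sequencing in the labelled central nucleus of the amygdala of 84 mice, 43 females and 41 males, with 1 library from each mouse. The mice were heterogeneous stock Collaborative Cross (HS-CC) animals, an outbred population descended from several inbred strains, with a median age of 15 weeks when testing began. All of them, without exception, had a free choice between water and 10% ethanol for 13 weeks and kept ethanol until they were killed, so no group went without ethanol and drinking is compared only by degree. Up to 3 animals came from 1 family and the family of each is not given in the sources used here, so p-values treat relatives as independent.

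Astrocytes are the glial cells that take up glutamate and potassium after synaptic activity, couple to each other through gap junctions, supply neurons with lactate and lipids, and line blood vessels with their endfeet. In response to injury or toxins they can become reactive, with more of the filament protein GFAP. The level and the set of genes that astrocytes express differ between brain regions, and glutamate clearance by astrocytes has been studied in relation to ethanol drinking. The tissue was cut by laser from frozen sections and holds all cell types together, so fewer astrocytes and less RNA per astrocyte cannot be told apart.

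Libraries had 24118965 to 42036566 counts. Sst, Prkcd and Crh, from a list of 15 central amygdala neuron genes, had counts in every library. Their medians were 350 CPM (read counts scaled by library size) for Sst, 18.6 for Prkcd and 6.92 for Crh. Of the 15 genes, 1 was at 0 in at least 1 library. How much of each library came from the labelled nucleus was not tested. Slc17a7, a marker of cortical and basolateral excitatory neurons, ran from 13.0 to 2404 CPM with a median of 1359. Ttr, the transport protein of the choroid plexus, ran from 0.0988 to 23631 CPM with a median of 55.9. The numbers in the sample titles form 4 ascending runs, called sheet runs here, whose meaning is not given in the sources used here.

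Each member was first described by its level. Per kilobase of exon, Apoe, the lipid carrier of astrocytes, had the highest median, 995 RPKM (CPM per kilobase). It was followed by Sparcl1, a secreted synapse-promoting protein (604), the glutamine synthetase gene Glul (334), clusterin, Clu (269), the glycolytic aldolase Aldoc (265) and Slc1a2, the main glutamate transporter of astrocytes (151.5). Next came the sodium pump subunit Atp1b2 (126.4) and the calcium-binding S100b (113). The lowest medians were those of Plcd4, a phospholipase C (2.18 RPKM), the bone morphogenetic protein receptor Bmpr1b (2.78) and the urea transporter Slc14a1 (3.75). The standard deviation of log2 CPM over the 84 libraries had a median of 0.30 over the members and 0.32 over all genes tested, so the members as a list did not vary more than other genes.

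**Figure D1:**
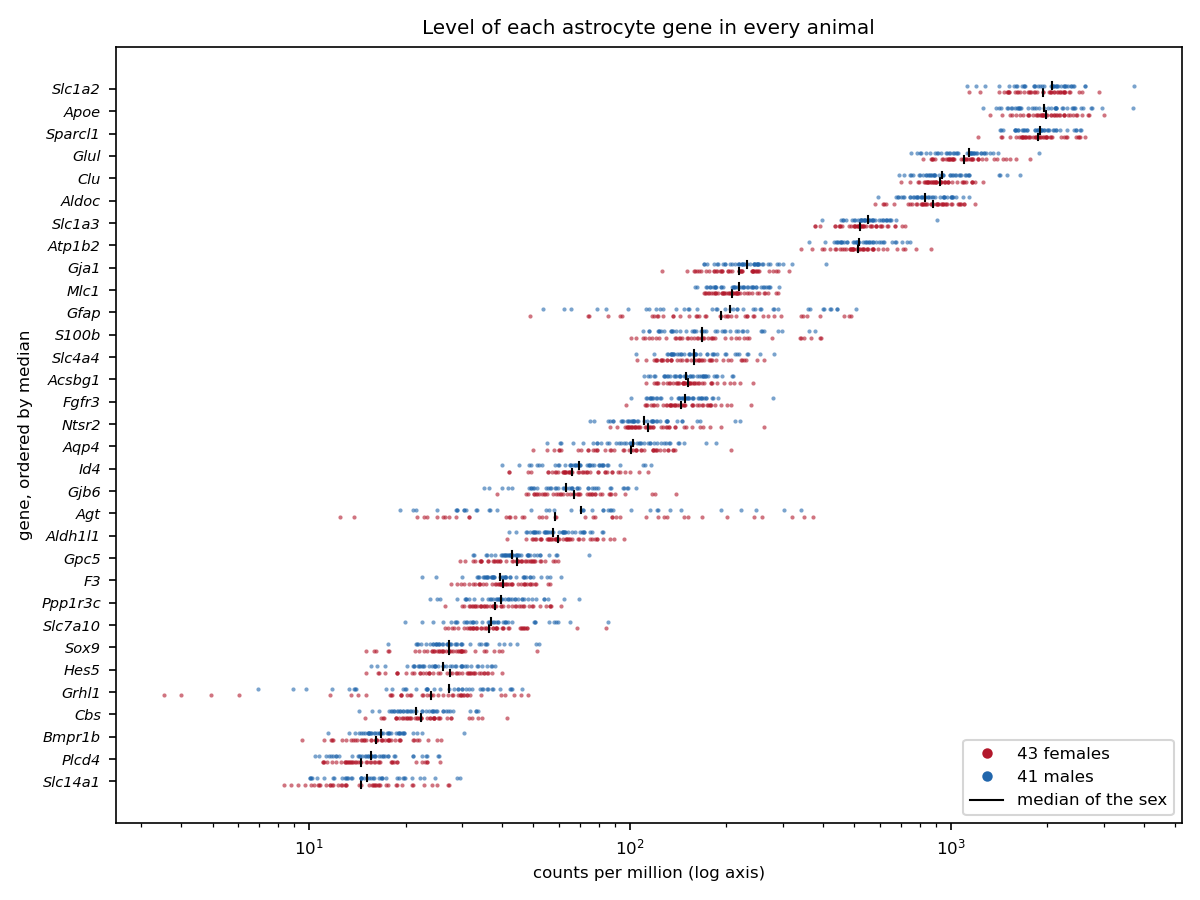
CPM (log axis) of the 32 astrocyte genes in each of 43 females and 41 males, with the median of each sex as a bar. Agt, Gfap and Grhl1 spread far more widely than the others, and the sexes overlap for every gene.

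A few members varied far more than the rest. Agt encodes angiotensinogen, the precursor of the angiotensin peptides, and lies on chromosome 8 from 124556534 to 124569706 of GRCm38. It ran from 12.5 over a median of 58.4 to 372 CPM in females and from 19.2 over 70.4 to 340 CPM in males. The highest library was thus 29.9-fold above the lowest, the sexes overlapped over almost the whole range, and the SD of 1.18 on the log2 scale was above that of 96.0% of the genes tested. Gfap, the intermediate filament gene on chromosome 11 from 102887336 to 102900912, ran from 48.9 over 192 to 490.5 CPM in females and from 53.5 over 205.7 to 506 CPM in males, a 10.3-fold range. Grhl1, a grainyhead-like transcription factor, ran from 3.53 over 24 to 48.2 CPM in females and from 6.94 over 27.3 to 46.1 CPM in males, a 13.7-fold range, with 4 females at the bottom of it. The member with the smallest fold range was Mlc1, a membrane protein of astrocyte junctions, whose highest library was 1.82-fold above the lowest. By SD on the log2 scale, Slc1a3 (0.212) was slightly more even than Mlc1 (0.215).

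Promoter sequences are shown for the most variable secreted member, the reactive filament gene and a gap junction member that followed the shared pattern. These 3 are examples, and the members farthest from that pattern, named below, are not among them. They are RefSeq promoters of GRCm38.p6, 250 bases before to 50 after a listed start, printed in the direction of transcription. Capitals mark a match to the STAT motif TTCCNGGAA, searched on both strands together with the NFI motif TTGGCA and the SOX motif AACAAT.
Gfap, chr11:102897151-102897450, minus strand: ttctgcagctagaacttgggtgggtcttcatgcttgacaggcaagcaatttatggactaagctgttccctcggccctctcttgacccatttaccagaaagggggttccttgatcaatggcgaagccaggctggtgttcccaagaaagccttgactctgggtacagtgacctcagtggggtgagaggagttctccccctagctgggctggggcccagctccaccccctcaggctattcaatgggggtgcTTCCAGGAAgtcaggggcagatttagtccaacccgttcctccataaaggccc
Agt, chr8:124569657-124569956, minus strand: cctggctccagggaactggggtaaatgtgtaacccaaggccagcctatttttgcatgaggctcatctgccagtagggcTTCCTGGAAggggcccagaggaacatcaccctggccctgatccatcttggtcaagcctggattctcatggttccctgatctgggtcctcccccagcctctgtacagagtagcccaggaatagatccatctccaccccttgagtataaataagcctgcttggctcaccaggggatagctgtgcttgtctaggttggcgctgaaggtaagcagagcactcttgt
Gja1, chr10:56377050-56377349, plus strand: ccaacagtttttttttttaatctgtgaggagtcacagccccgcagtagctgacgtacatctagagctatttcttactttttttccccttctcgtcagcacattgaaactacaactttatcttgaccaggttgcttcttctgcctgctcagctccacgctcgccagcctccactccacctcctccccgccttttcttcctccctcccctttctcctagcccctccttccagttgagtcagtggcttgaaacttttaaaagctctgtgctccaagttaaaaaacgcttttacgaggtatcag

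The STAT motif had 1 match in the window of Gfap and 1 in that of Agt, while that of Gja1 held none of the 3 motifs. RefSeq had promoters for 26 of the 32 members. Of these, 3 (11.5%), Gfap, Agt and Aldoc, had the STAT motif in at least 1 listed window, against 364 of 27025 genes (1.35%). The NFI motif was in 3 of 26 (S100b, Aldoc and Apoe, 11.5%, against 16.2% of genes) and the SOX motif in 2 (Plcd4 and Bmpr1b, 7.69%, against 12.2%). For 4 of the 26, Slc1a2, Gfap, Aldh1l1 and Bmpr1b, every listed start lay more than 1000 bases inside the gene as the table gives it, so other starts of these genes were not searched.

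The co-variation of the members over the 84 libraries was described next, as Pearson's r of log2 CPM. Most members varied together: the median r over the 496 pairs of members was 0.33, 422 pairs (85.1%) had a positive r, and 122 (24.6%) exceeded 0.5. Over the 133163040 pairs of all genes tested the median was -0.002, with 49.6% positive and 3.55% over 0.5. Markers of 1 cell type in bulk tissue share its proportion and their library's scaling, so these values are given as a description and without a test. The closest pairs were the glutamate transporter Slc1a3 with the gap junction gene Gja1 (0.81), Glul with the growth factor receptor Fgfr3 (0.80), Gja1 with Slc14a1 (0.76) and Mlc1 with Sparcl1 (0.76). The first principal component held 38.1% of the variance of the 32 genes, the second 12.9% and the third 9.89%.

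To rank the members, each was set against the mean z-score of the other 31. The 5 closest to the rest were Mlc1 (r = 0.87), Sparcl1 (0.80), Gja1 (0.79), Fgfr3 (0.73) and Slc14a1 (0.72), which are surface, secreted or transport proteins. Over all members the median was 0.60. The 5 farthest were Hes5 (-0.17), Slc1a2 (-0.10), Grhl1 (-0.07), Id4 (0.16) and Sox9 (0.27), and so the 4 transcription regulators of the list were all among the 5 with the lowest r. The level of a member did not go with its place in this order (r = 0.08 across the 32 genes).

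**Figure D2:**
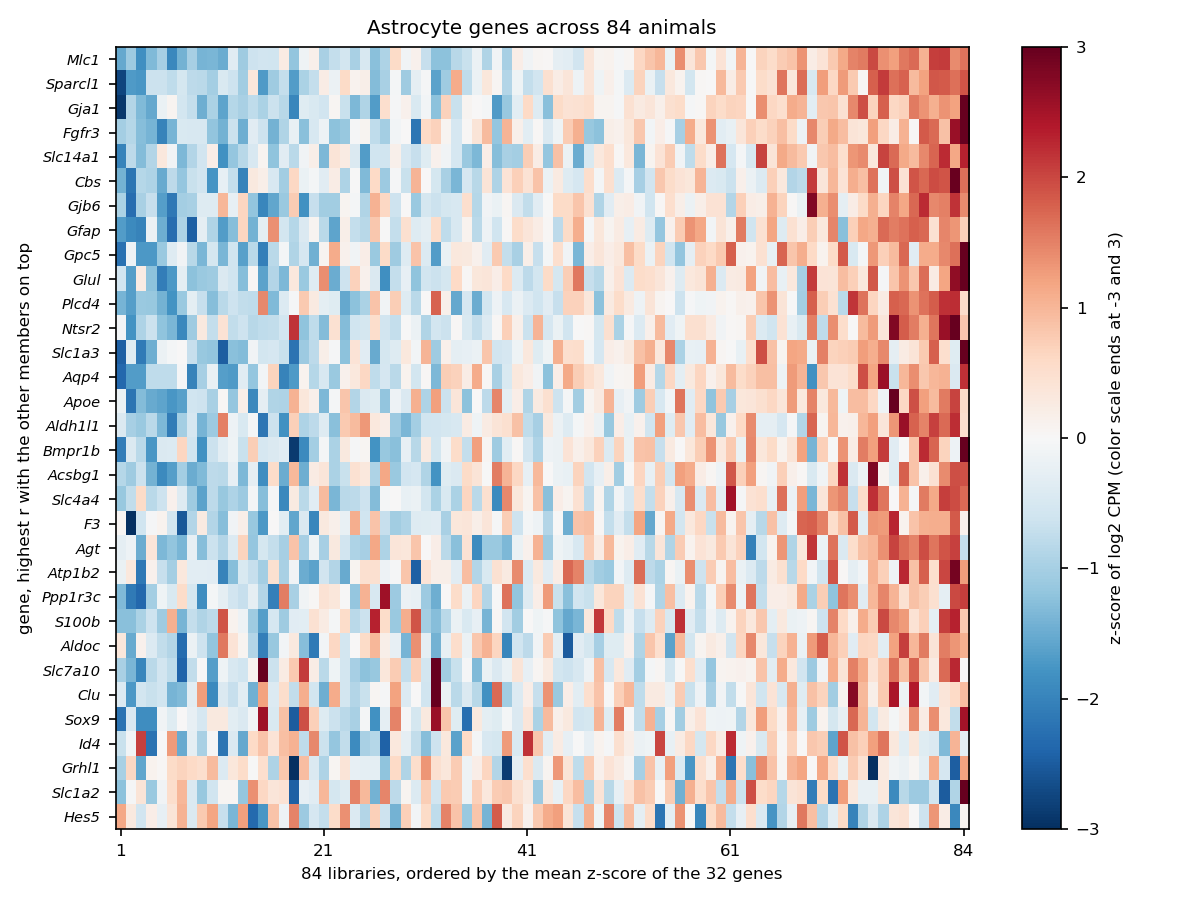
Z-scores of log2 CPM of the 32 genes (rows, highest r with the others on top) in 84 libraries (columns, ordered by the mean z-score of the 32 genes). The upper rows turn from blue to red together from left to right, while the lowest rows, Hes5, Slc1a2, Grhl1 and Id4, do not follow.

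In subsets of the animals the median pair r was 0.33 in females and 0.36 in males, 0.29 to 0.41 within the 4 sheet runs, 0.36 after sex and run were taken out, and 0.36 without the 5 libraries whose choroid plexus genes were highest, called choroid-rich here. Of the 5 members farthest from the rest, 3 to 5 were also among the 5 farthest in each of these subsets. The 5 closest members were less stable, with 4 of 5 shared in females, 3 in males and 1, 3, 3 and 4 within the sheet runs. Single departing members also varied: the r of Slc1a2 was 0.01 in females and -0.20 in males, that of Grhl1 was -0.21 and 0.09, and that of Id4 was 0.35 and -0.02. Sox9 had 0.21 in females and 0.32 in males, and 0.40 without the choroid-rich libraries.

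By role, metabolic enzymes followed the rest with r of 0.71 for Cbs, of transsulfuration, 0.67 for Plcd4, 0.61 for the folate enzyme Aldh1l1, 0.59 for the acyl-CoA synthetase Acsbg1, 0.48 for the glycogen-targeting subunit Ppp1r3c and 0.45 for Aldoc. Among channels, transporters and junctions the second gap junction gene Gjb6 had 0.71, the water channel Aqp4 0.63, the bicarbonate transporter Slc4a4 0.58, Atp1b2 0.49 and the amino acid transporter Slc7a10 0.44. The receptors followed the rest, with 0.67 for the neurotensin receptor Ntsr2 and 0.60 for Bmpr1b beside Fgfr3. Secreted and surface proteins ranged widely, with 0.69 for the glypican Gpc5, 0.62 for Apoe, 0.54 for the tissue factor gene F3, 0.54 for Agt and 0.34 for Clu. Gfap had 0.69 and S100b 0.46. For some members the r with genes of other glia was higher than with the other members. S100b had 0.66 with oligodendrocyte genes, and Atp1b2 and Slc4a4 had 0.70 and 0.66 with oligodendrocyte precursor genes. In glutamate handling, Glul (0.68) and Slc1a3 (0.65) moved with the rest and Slc1a2 did not.

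By its r with the other members, Slc1a2 stood apart from the other 2 genes of glutamate handling. As a pair, however, Slc1a2 and Slc1a3 had r of 0.40, beside 0.11 for Slc1a2 with Glul and 0.45 for Slc1a3 with Glul. Slc1a2 lies on chromosome 2 from 102658659 to 102790784. It had 1137 CPM in the lowest, 1938 in the median and 2891 in the highest female, and 1122, 2068 and 3714 in males. The sexes overlapped, and its lowest and highest libraries, male replicates 15 and 18, had the third highest and the highest mean z-score of all members. At 13133 bases its exons are the longest of the 32 members. Over libraries it went with a length index, the r within a library between z-score and log2 exon length over non-member genes, at r = 0.57. Apoe, with 1980 bases of exon, went with the same index at -0.61, and across the 32 members the r with the index was higher for longer exons, on a log2 scale (r = 0.74, rho = 0.70). The index is itself built from exon length, so a relation of this direction is expected for any set of genes. Its size over all genes was not tested. Only 2 members, Slc1a2 and Apoe, had an r with the index above 0.5 in size, against 23.9% of all genes. The genes most like Slc1a2 in the whole table were Mfap3l (r = 0.85), Mib1 (0.80) and Ulk2 (0.80), none of them a member. The part of transcript length, RNA quality or counting in these relations was not tested.

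Slc1a2 and Agt ran against each other, with the lowest r of all 496 pairs (-0.68). Agt was higher where genes of thalamic, hypothalamic and medial amygdala neurons were higher (r = 0.82 with their mean z-score) and lower where those of cortical and basolateral excitatory neurons were higher (-0.74). For Slc1a2 these values were -0.57 and 0.58. Gfap also went with the first list (0.65). The mean z-score of all 32 members had r of 0.56 with the first and -0.54 with the second. What neighbouring tissue contributed to the members' values was not tested.

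**Figure D3:**
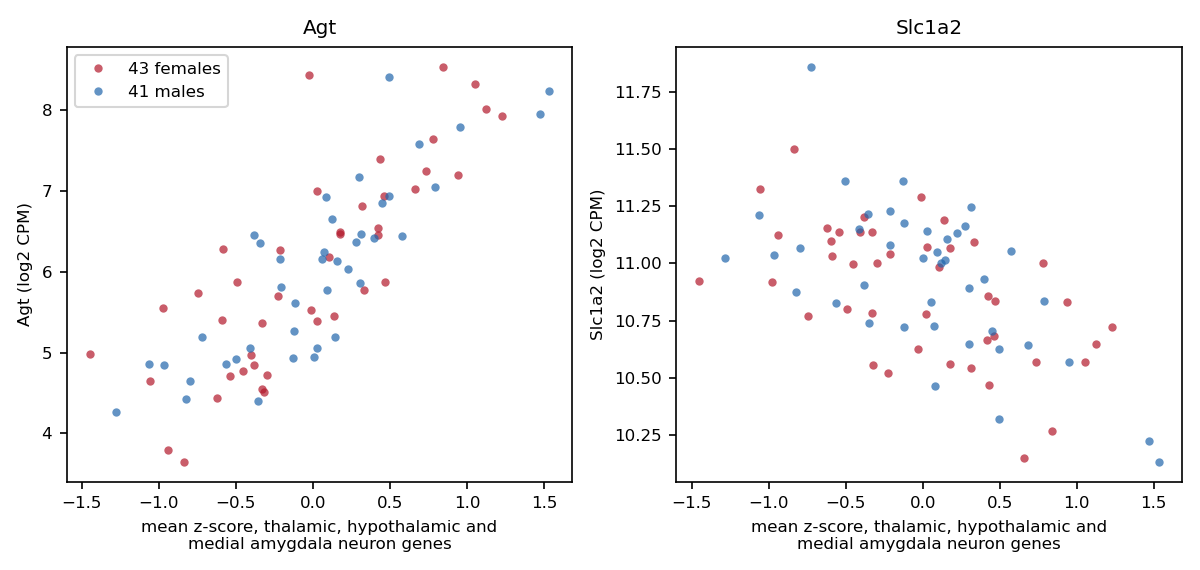
Log2 CPM of Agt (left) and Slc1a2 (right) against the mean z-score of thalamic, hypothalamic and medial amygdala neuron genes in 43 females and 41 males. Agt climbs from left to right (r = 0.82) and Slc1a2 falls (r = -0.57), with both sexes spread over the whole range.

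Several members, some of them departing and some close to the rest, went with genes of the cells that line the ventricles. Sox9, a transcription factor of astrocytes that ependymal cells also express, had r of 0.67 with the mean z-score of 14 choroid plexus genes and 0.64 with 15 ependymal genes. Without the 5 choroid-rich libraries these were 0.56 and 0.50. Sox9 ran from 15.0 over 27.2 to 51.5 CPM in females and from 17.6 over 27.3 to 52.0 CPM in males, with overlapping sexes and its top value in male replicate 33, which also had the highest choroid plexus score. Clu had r of 0.54 and 0.47 (0.41 and 0.30 without the 5) and Slc7a10 0.48 and 0.41 (0.30 and 0.18 without them), and both were highest in the same library. Without the 5, the r of Slc7a10 with the other members was 0.65. Grhl1 had 0.44 and 0.54 (0.42 and 0.55 without the 5), and its r with Sox9 was 0.43. Among members closer to the rest, Slc14a1 had 0.40 and 0.38 (0.42 and 0.40 without the 5). Plcd4 had 0.41 and 0.34 (0.29 and 0.20 without them). Other members ran the other way. The lowest values were those of Acsbg1, -0.40 and -0.51 (-0.28 and -0.41 without the 5), and Hes5 had -0.32 and -0.33 (-0.18 and -0.17). The third component of the members had r of 0.80 with the choroid plexus and 0.83 with the ependymal score, and -0.75 with neuron genes. Genes most like Sox9 were Zfp36l1 (0.84), Pdlim5 (0.81) and Sept10 (0.77).

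**Figure D4:**
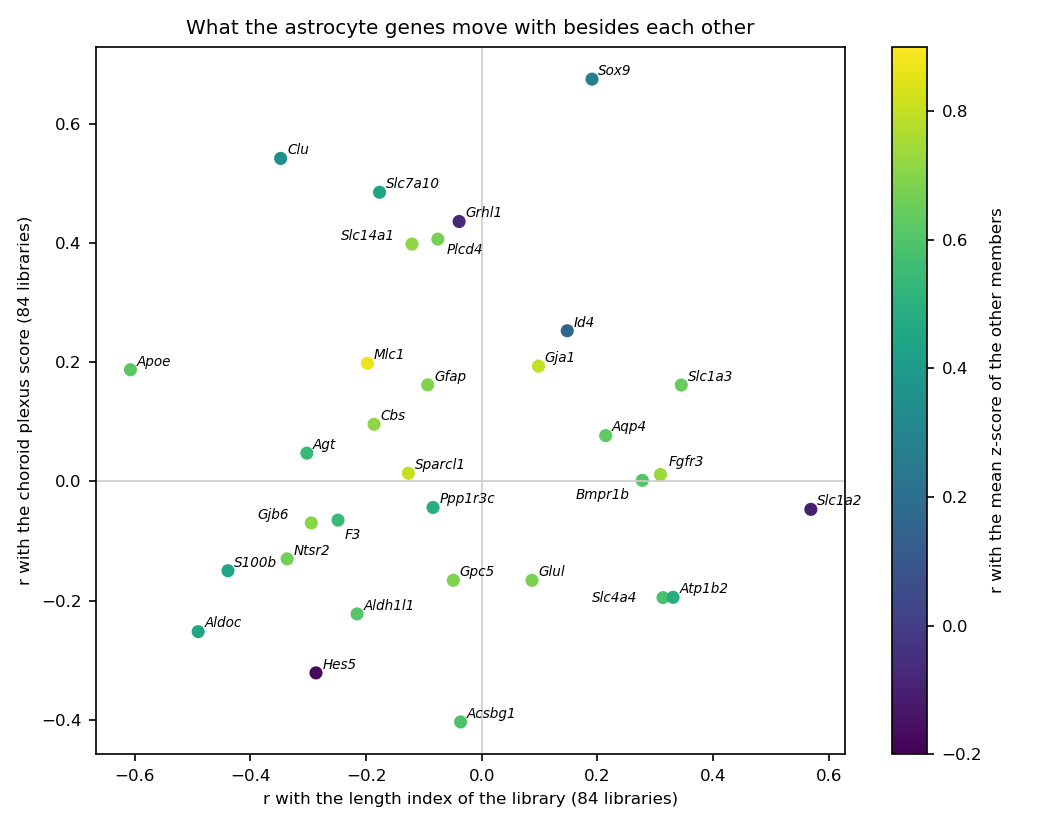
Each of the 32 members by its r over 84 libraries with the length index (x axis) and with the choroid plexus score (y axis), colored by its r with the other members. Sox9 and Clu lie at the top, Slc1a2 at the right and Apoe at the left.

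Grhl1 was also low where striatal medium spiny neuron genes (r = -0.70) and vessel genes (-0.67) were high, and it was most like Ak4 (0.86), Pcdh19 (0.85) and Nr2f1 (0.84). Id4, an inhibitor of basic helix-loop-helix factors, went with the striatal list (0.56) and was most like Zfp503 (0.66), Gng7 (0.65) and Pde7b (0.64). Hes5, a target of Notch signalling on chromosome 4 from 154960923 to 154962371, ran from 15.1 over 27.4 to 40.0 CPM in females and from 15.6 over 26.1 to 37.99 CPM in males. Its sexes overlapped, and its closest genes were less alike, namely H2afx (0.60), Fam19a5 (0.56) and March9 (0.55). No cell types were sorted, so expression of these genes in astrocytes and in other cells cannot be told apart.

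The mean z-score of the 32 members ran from -1.13 in female replicate 11 to 1.54 in male replicate 18. It had r of 0.92 with a list of 60 other astrocyte genes, 0.70 with oligodendrocyte precursor, 0.45 with oligodendrocyte, 0.31 with microglia and -0.33 with neuron genes. The 10 non-members closest to it were Zcchc24 (0.80), Rftn2 (0.80), Gprc5b (0.78), Abhd4 (0.78), the syndecan Sdc4 (0.77), the glycogen phosphorylase Pygb (0.75), Cyp2j9 (0.74), Timp4 (0.73), Hepacam (0.73) and Selenbp1 (0.73). Of these 10, Pygb, Cyp2j9 and Hepacam were on the list of other astrocyte genes. Reactive astrocyte genes, of which 30 of 36 were measured, went less closely with the members (0.46), and Gfap was the member nearest to them (0.71). By sheet run, the r of the reactive genes with the mean z-score of the members was 0.76, -0.08, 0.28 and 0.71. Total counts had r of 0.02 with the mean z-score and the TMM scaling factor 0.42. Within the 4 sheet runs the r of the scaling factor was 0.65, -0.15, 0.37 and 0.83. The part of scaling in the shared pattern was not tested.

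Members were then set against drinking, to ask which of them vary with the preference for ethanol, the share of fluid taken from the ethanol tube. Mean preference over 13 weeks ran from 0.0435 over a median of 0.229 to 0.759 in females and from 0.0262 over 0.153 to 0.713 in males. With both sexes in 1 fit and sex as a covariate, edgeR's quasi-likelihood test called 0 of 32 members at an adjusted p under 0.05, as it called 0.0% of all genes. At an unadjusted p under 0.05 it found 0 members, against 3.94% of genes. DESeq2 and limma-voom also called 0 members. At an unadjusted p under 0.05 they found 0 members, against 669 and 544 of 16320 genes. Across the 11 drinking comparisons both of these tools called 0 members, with 0 to 4 (DESeq2) and 0 to 5 (limma-voom) at an unadjusted p under 0.05. The 5 were for week 13 in females, where limma-voom found 1176 of 16320 genes. DESeq2 found 4 there, against 1488 genes, and 4 for week 1 in males, against 897 genes. A slope is the log2 change for each 0.5 of preference. The largest were -0.18 ± 0.36 (SE) for Agt, 0.17 ± 0.12 for Sox9 and -0.17 ± 0.09 for Glul, each with an edgeR adjusted p of 1.00. Slopes of 7 of the 32 members were positive, with a median of -0.07, against 8037 of 16320 genes and a median of -0.0016. Since the members co-vary, these 32 slopes are not separate observations.

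**Figure D5:**
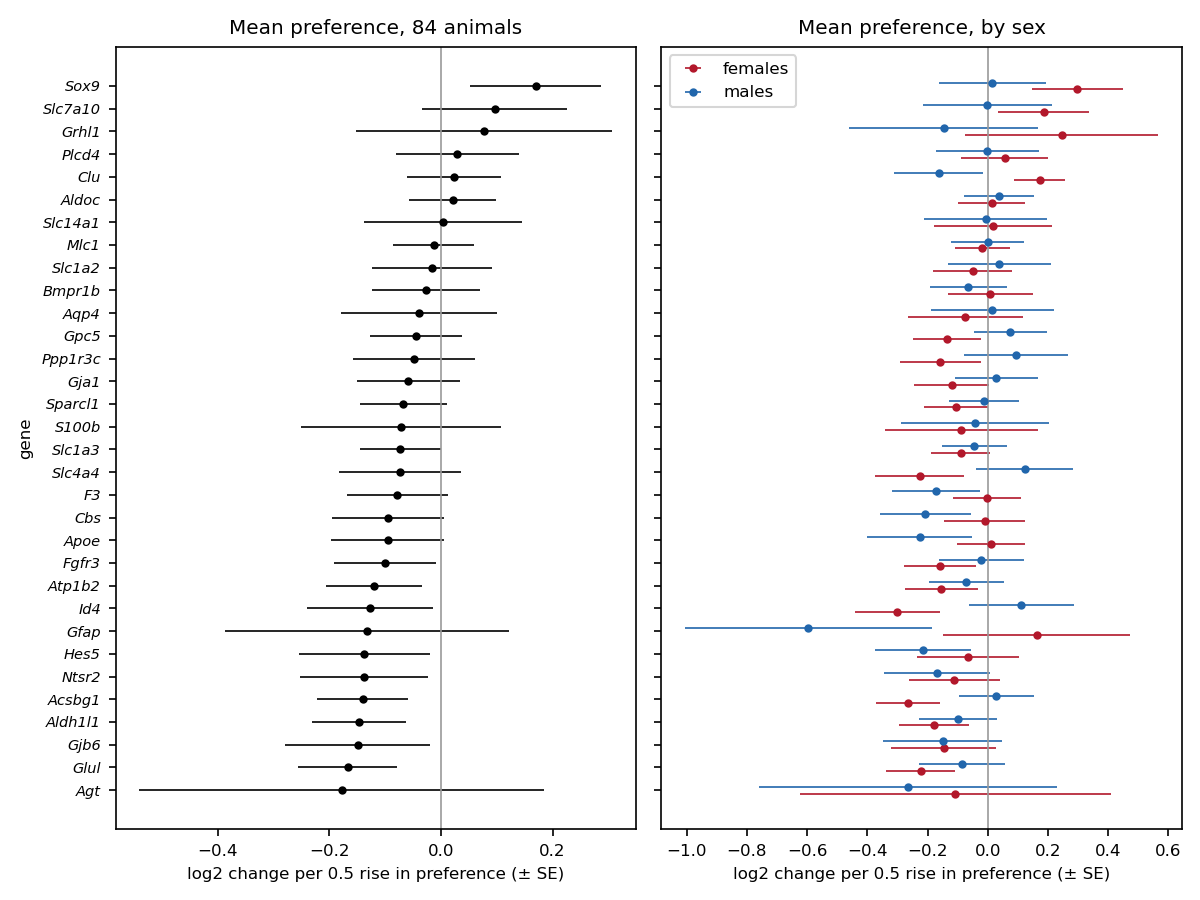
Log2 change ± SE of each member per 0.5 rise in mean preference, in 84 animals (left) and in 43 females and 41 males separately (right). Most slopes lie slightly below 0 and no member passed an adjusted p of 0.05.

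In females, 0 members were called for mean preference (0.0% of genes), and 3 had an unadjusted p under 0.05, against 6.95% of genes. These were the lipid enzyme Acsbg1 (-0.27 ± 0.11), Id4 (-0.30 ± 0.14) and Clu (0.17 ± 0.09), with edgeR adjusted p-values of 0.528, 0.651 and 0.714. In males 0 were called (0.0%) and 0 had an unadjusted p under 0.05 (1.65% of genes). The slope of Clu differed between the sexes by -0.34 ± 0.17, male minus female, at an edgeR unadjusted p of 0.0427 and an adjusted p of 0.999. It was the 1 member of 32 past the unadjusted threshold for that difference, against 3.24% of genes, and 0 members were called (0.0%). Choroid plexus genes had a median slope of 2.43 in females, with all 14 positive. Without the 5 choroid-rich libraries, the slope of Clu in females was 0.11 and that of Acsbg1 -0.21.

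For preference in week 1, edgeR called 0 members in all animals (0.0306% of genes), 0 in females (0.0%) and 0 in males (0.0368%). In all animals 3 members, all sloping down, had an unadjusted p under 0.05, against 3.25% of genes: Slc14a1 (-0.28 ± 0.13), Ntsr2 (-0.24 ± 0.11) and F3 (-0.17 ± 0.08), with edgeR adjusted p-values of 1.00. This count depended on the setting. With animals ranked by week 1 preference it was 13 of 32, all sloping down, against 906 of 16320 genes, and 3 of 32 slopes were positive, while 0 members were called. It was 1 without male replicate 39 (282 genes), 1 with sheet run as a term (416 genes) and 4 without the choroid-rich libraries (561 genes). In females there were 0, against 2.26%. In males there were 4, again all down, against 5.17%: Gfap (-0.80 ± 0.33), Apoe (-0.35 ± 0.14), Cbs (-0.30 ± 0.12) and F3 (-0.26 ± 0.12), each with an edgeR adjusted p of 0.953. With ranks there were 8 in males, all down, against 1081 of 16320 genes, and 2 of 32 slopes were positive. There were 6 without the choroid-rich libraries (893 genes) and 3 without male replicate 39 (559 genes). In the 3 males with a week 1 preference of at least 0.5, Gfap was 123.9, 151.9 and 186.96 CPM, and in the other 38 it ran from 53.5 over 213 to 506 CPM. The 3 lay inside the range of the others and below their median. In males 4 of 32 slopes were positive, with a median of -0.15. Without male replicate 39, the library without which edgeR called 0 genes, the slope of Gfap was -0.90 and the median of the members -0.13.

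Week 13 preference, the measure closest to the collection of tissue, gave 0 calls among members in all animals (0.0% of genes), females (0.0368%) and males (0.0%). In all animals Ntsr2 (-0.19 ± 0.09) and Acsbg1 (-0.13 ± 0.06) had an unadjusted p under 0.05, as did 6.0% of genes. In females there were 4, against 8.67% of genes: Acsbg1 (-0.24 ± 0.08), Aldh1l1 (-0.20 ± 0.09), Clu (0.16 ± 0.07) and Sox9 (0.27 ± 0.12). Acsbg1 had the smallest p of any member in any drinking comparison (edgeR unadjusted p = 0.00517, adjusted p = 0.185). It was 112 CPM in the lowest, 150.9 in the median and 170 in the highest of the 10 females with a week 13 preference of at least 0.5, and 119, 152 and 243 in the other 33. The medians were thus close, the groups overlapped, and every value above 170 CPM was in a female of lower preference. Without the 5 choroid-rich libraries, Sox9 in females had a slope of 0.12 and Acsbg1 one of -0.20. In males, Agt (-0.99 ± 0.43) and Sparcl1 (-0.18 ± 0.09) had an unadjusted p under 0.05, against 3.74% of genes, with edgeR adjusted p-values of 0.984. These counts of members also depended on the setting. With sheet run as a term they were 0 in all animals (1795 genes), 2 in females (1820 genes) and 0 in males (783 genes). With ranked drinking they were 5 (866 genes), 6 (1326 genes) and 3 (924 genes). Without the choroid-rich libraries they were 1 (455 genes), 1 (647 genes) and 2 (1091 genes).

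Mean intake of ethanol, in g/kg, was fitted in place of preference. edgeR called 0 members (0.049% of genes), and 2 had an unadjusted p under 0.05, against 7.87% of genes. Per 10 g/kg, Aldh1l1 changed by -0.19 ± 0.08 and Sox9 by 0.26 ± 0.11, with edgeR adjusted p-values of 0.514 and 0.479. Without the 5 choroid-rich libraries the slope of Sox9 was 0.10. The count of 2 members became 0 with sheet run as a term (1499 genes) and 0 without the choroid-rich libraries (424 genes). It was 2 with ranked drinking (931 genes). The mean z-score of the members had r of -0.11 with mean preference, -0.19 with week 1 preference, -0.14 with week 13 preference and -0.13 with intake over the 84 libraries, given as a description. For week 1 the rho was -0.26. In males the week 1 r was -0.25 with a rho of -0.34, and the r was -0.34 without the 2 farthest males, while in females the r was -0.12 with a rho of -0.17. Within the 4 sheet runs the r was -0.27, -0.36, -0.48 and 0.07 for week 1 preference and 0.22, -0.38, -0.43 and 0.13 for mean preference.

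Among the lists near the members, 0 of 60 other astrocyte genes and 0 of 30 reactive astrocyte genes were called by edgeR for mean preference in all animals, and 5 and 2 had an unadjusted p under 0.05, against 3.94% of genes. Slopes were positive for 15 of the 60, with a median of -0.05, and Htra1 (-0.25), Slco1c1 (0.35) and Bcan (-0.17) had the smallest p. For the reactive genes 18 of 30 were positive, with a median of 0.06, and Tm4sf1 (0.55), Cd109 (0.55) and Ggta1 (0.25) came first. All 6 had an edgeR adjusted p of 1.00. In the other 10 drinking comparisons 0 genes of either list were called, and 0 to 10 of the 60 and 1 to 6 of the 30 had an unadjusted p under 0.05. The highest counts of other astrocyte genes were 10 of 60 for intake, against 7.87% of genes, and 8 of 60 for week 1 in males, against 5.17%. The highest count of reactive genes was 6 of 30 for week 13 in females, against 8.67%, where Tm4sf1 had a slope of 0.53 ± 0.15 and an edgeR adjusted p of 0.0824.

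Sex and sheet run were checked as other sources of variation. For sex, edgeR called 0 of 32 members (0.0919% of genes), and 1 had an unadjusted p under 0.05, against 3.81% of genes. This was Gja1, higher in males by 0.14 ± 0.06 on the log2 scale (edgeR adjusted p = 0.986), with 125.5, 218.5 and 313 CPM as the lowest, median and highest in females and 170, 232.4 and 409 in males. Sheet run was called for 2 of the 32 members, Atp1b2 (edgeR adjusted p = 0.0054) and Agt (0.0206), against 21.7% of genes. The median of Agt was 31.99 CPM in the first run and 70.8, 82.7 and 77.7 in the others, and that of Atp1b2 was 495, 549, 600 and 497 CPM. What separates the runs was not tested.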

How the data were processed

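RNA was measured in 84 libraries of the labelled central nucleus of the amygdala, 1 per mouse, from stranded poly(A) libraries, per the labels' protocols. The deposited values are raw counts of reads per gene, per the labels. Per the submitters' processing notes, the tools were STAR, featureCounts 1.6.0 of Subread, FastQC and DESeq2, and the build was GRCm38 (mm10). A strand setting, an annotation release or a filter is not given in the sources used here, so overlapping antisense genes could not be told apart. Not used were 5 empty columns and 3 of undetermined reads. Symbols turned into dates were recovered by identifier.

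Genes were kept by filterByExpr of edgeR 4.0.16 in R 4.3.3 (minimum count 10, minimum total 15, sexes as groups), scaled by TMM and fitted with the robust quasi-likelihood model. Adjustment followed Benjamini and Hochberg over 16320 genes at 0.05. Slopes are per 0.5 preference or 10 g/kg, and SE is the slope's size over the square root of F. Log2 CPM used a prior count of 2. Replicate numbers follow the order of listing. Total counts were 24118965 to 42036566, and the median SE of a member's slope for mean preference was 0.10 in all animals, 0.13 in females and 0.16 in males.

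The members and gene lists were chosen with earlier results of these data known. All members are accounted for. Genes were named by rule: the 5 highest and 5 lowest r with the other members, the 3 genes most like each of the lowest 5 (mean log2 CPM at least 1), the 10 closest non-members, members with an unadjusted p under 0.05, the 3 largest slopes for mean preference, members past adjusted p 0.05 for sex or run, and for other lists the 3 smallest p. Alternatives were DESeq2 1.42.0, limma-voom 3.58.1, other size factors, no filter, sheet run as a term, ranked drinking, each sex, and, chosen after seeing the data, no choroid-rich libraries, single runs, and no male replicate 39. The scripts were tested on simulated data.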

Additional observations from a re-analysis of the deposited data

How the results depend on the processing

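No paired analysis was possible because the replicate numbers follow only the order of listing and pair no samples. The number of called members was the same under every setting run: 0 for each drinking measure and for sex, and 2 for sheet run. The 27 named member results were refitted under the alternatives and kept their side of the adjusted threshold in all of these refits. Those with a slope kept its direction. Adjusted p-values were from 0.133 to 1 for drinking and sex. Members were named for drinking and sex by unadjusted p or slope size, so this threshold was a weak check of them. By unadjusted p, 2 members became 0 for week 13 in males and for intake with sheet run as a term. For week 1 in all animals, 3 became 13 with ranked drinking. The share of all genes called, which is the background of the counts of called members, depended more on the settings, and the cause was not tested. With no filter on low counts, edgeR called 0.172%, 0.0778% and 0.0547% of genes for mean preference in all animals, females and males, 0.0681% for its difference by sex, 0.224%, 0.0338% and 0.174% for week 1, 0.23%, 0.308% and 0.106% for week 13, 0.292% for intake and 0.24% for sex. DESeq2 called 0.0123% for mean preference in males, 0.00613% for its difference by sex, 0.0184% for week 1 in males, and 1.26% and 0.0123% for week 13 in females and males. Limma-voom called 0% for week 1 in all animals and in males, 0% for week 13 in females and 0.00613% for intake. With sheet run as a term, the shares were 0.00613% for the difference by sex, 0.0123% for week 1 in males, 0.147% for week 13 in females and 0% for intake. With ranked drinking they were 0.0123%, 0.00613% and 0% for week 1 in all animals, females and males, 0.00613% for week 13 in males and 0% for intake. Without the 5 choroid-rich libraries they were 0% for week 13 in females and 0.00613% for intake, and without male replicate 39 they were 0% for week 1 in all animals and in males. The median member slope for the difference by sex turned from 0.0172 to -0.0136 without the choroid-rich libraries. The r with the other members changed sign for Hes5 in run 4 (0.0477), Slc1a2 in females (0.00831) and run 2 (0.228), Grhl1 in males (0.0867), run 2 (0.0684) and run 4 (0.22), Id4 in males (-0.0234) and run 2 (-0.0244), and Sox9 in run 1 (-0.0501). The lowest value of any member in any library was 3.53 CPM, of Grhl1, while shared families and mixed tissue limit what the p-values cover.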
